A study of Mus musculus with 6 samples.

Results

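Lysyl oxidases are copper-dependent enzymes that oxidise lysine side chains of collagen and elastin, and the aldehydes they make join neighbouring chains into crosslinks. Elastic fibres have an elastin core laid down on microfibrils of fibrillin, and fibulins tie elastin, microfibrils and lysyl oxidases together. In the ovary such matrix forms part of the follicle wall and of the layer around it, and in the rat granulosa cells are a known source of lysyl oxidase. The 10 genes described here were chosen by name from the 55860 genes of the deposited tables: the 5 lysyl oxidases Lox, Loxl1, Loxl2, Loxl3 and Loxl4, elastin (Eln), fibrillin 1 (Fbn1) and the fibulins Fbln1, Fbln2 and Fbln5. Each had 1 row in the tables and passed the filter on low counts.

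Transcripts were sequenced from granulosa cells, the somatic cells that surround the oocyte, of Il22r-/- mice and of Il22r+/+ mice, with 3 libraries per genotype. Il22r is the receptor of interleukin-22, a cytokine whose receptor acts through JAK kinases and STAT3. Cells of both genotypes came from the ovary by density gradient and spent 12 h in serum-containing medium before RNA was taken. The labels state neither the deleted exons, the strain, the age of the mice nor how many animals gave a library, so the p-values measure the spread between these libraries, which may be technical.

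Counted reads ranged from 14.95 M to 18.12 M (M, mega-reads) in Il22r-/- libraries and from 17.43 M to 17.7 M in Il22r+/+ libraries. Reads of Il22ra1, which encodes the chain that binds the ligand, numbered 5, 2 and 0 for the Il22r-/- libraries and 1, 5 and 4 for the Il22r+/+ libraries, too few to check the genotype labels. The 8 granulosa markers summed to between 7114 and 7724 CPM (counts per mega-read after TMM scaling) in Il22r-/- libraries and between 8246 and 8827 CPM in Il22r+/+ libraries. Of these markers Amhr2 (2.77-fold), Nr5a2 (3.33-fold) and Inhba (1.62-fold) were higher, Serpine2 (3.26-fold), Foxl2 (1.39-fold) and Cdh2 (1.28-fold) were lower, and Inha and Fst did not pass the edgeR test described next. Most of the sum was Inha, Inhba and Serpine2, at means of 2605, 2858 and 725 CPM in Il22r-/-. Their means in Il22r+/+ were 3202, 1759 and 2364 CPM. Principal component 1 of the most variable genes (log2 CPM) held 89.35% of their variance. On it Il22r-/- libraries scored from -35.12 to -32.34 and Il22r+/+ libraries from 33.59 to 34.11. On principal component 2, with 4.21% of the variance, Il22r-/- replicate 3 had a score of -14.5, whereas the remaining libraries scored between -1.22 and 8.93. By the edgeR quasi-likelihood test with Benjamini-Hochberg adjustment, 45.7% of 15227 tested genes differed at an adjusted p under 0.05, 23.6% higher and 22.1% lower in Il22r-/-. With library size as the only scaling the median gene shifted upward, to a log2 fold change of 0.13 in place of 0.03, and 4595 genes were called higher and 2630 lower in place of 3592 and 3371.

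Most of the crosslinking enzymes were lower in Il22r-/- cells, while the fibre components moved in both directions. Of the 10 genes, 7 were called, 70% beside the 45.7% called among all tested genes. The 10 were chosen with earlier results of these data known, so the shares and median given here are descriptions. The 5 that fell were Fbln2, Loxl1, Loxl2, Loxl3 and Lox, and the 2 that rose were Eln, which met the filter on low counts only through its Il22r-/- libraries, and Fbn1. Of those that fell, Fbln2, Loxl1, Loxl2 and Loxl3 did so at least 2-fold, as did 6.30% of all tested genes. Eln was called higher at 2-fold or more (14.3% of all tested genes passed 2-fold in either direction). Fbln2 averaged 34.8 ± 6.19 CPM in Il22r-/- and 235 ± 27.1 CPM in Il22r+/+, and Loxl2 averaged 246 ± 19.8 CPM in Il22r-/- and 708 ± 34.1 CPM in Il22r+/+ (SD, n = 3 each). Loxl4, Fbln1 and Fbln5 did not pass the test. The median log2 fold change of the 10 genes was -0.61, against 0.03 over all tested genes. The libraries of the genotypes did not overlap in CPM for the same 7 genes, beside 56.0% of all tested genes (27.3% lower and 28.7% higher in Il22r-/-). In bulk samples such as these, fewer cells of a type and less RNA per cell cannot be told apart.

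**Figure D1:**
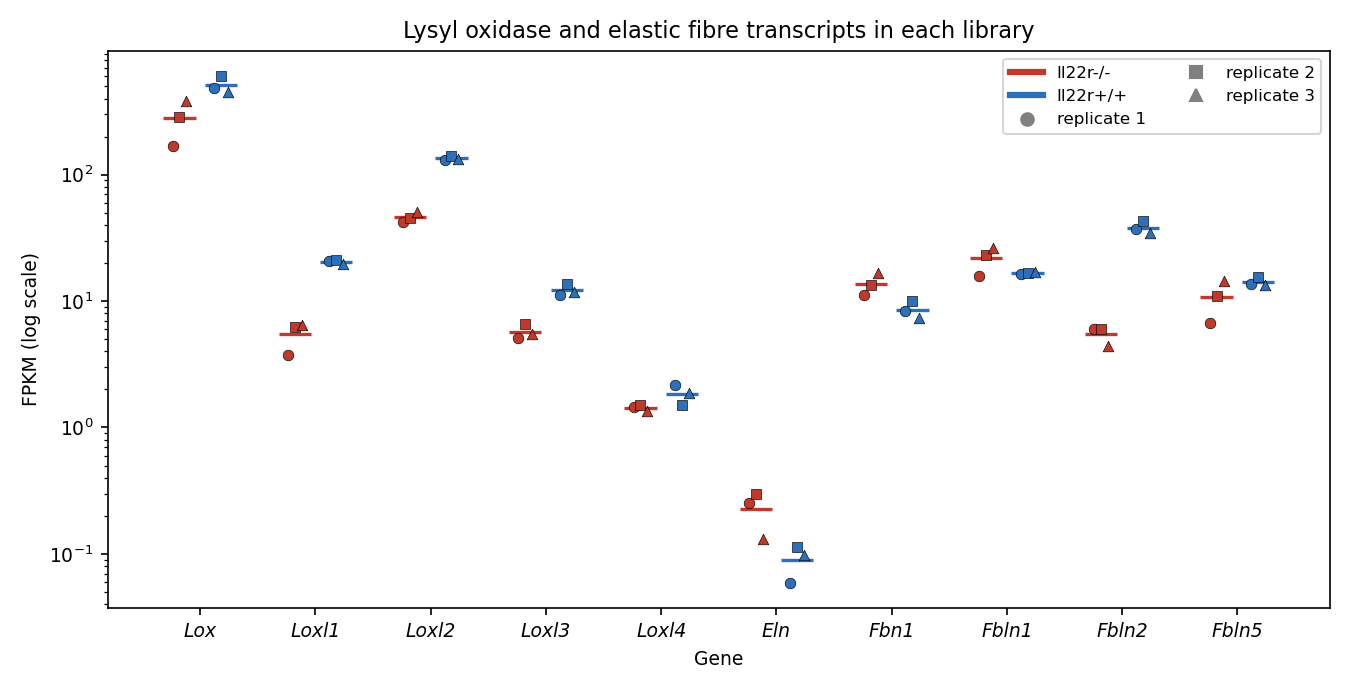
FPKM on a log scale for each of the 10 genes, with Il22r-/- libraries (red) left of Il22r+/+ libraries (blue), marker shapes for replicates and bars for group means. Lox lies highest in both genotypes and Eln lowest, and the largest gap between the genotypes is that of Fbln2, at a mean of 5.51 FPKM in Il22r-/- and 37.9 FPKM in Il22r+/+.

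Levels were compared between genes as FPKM, which divides by gene length. In Il22r-/- cells the order was Lox, Loxl2, Fbln1, Fbn1, Fbln5, Loxl3, Fbln2, Loxl1, Loxl4 and Eln. Within it, Fbln1 overlapped Fbn1, Fbn1 overlapped Fbln5, Loxl3 overlapped Fbln2 and Fbln2 overlapped Loxl1, while the other neighbours did not overlap. In Il22r+/+ cells the order was Lox, Loxl2, Fbln2, Loxl1, Fbln1, Fbln5, Loxl3, Fbn1, Loxl4 and Eln, and the libraries of Fbln5 and Loxl3 were the neighbours that overlapped. Fbln2 thus stood at rank 7 in Il22r-/- cells and at rank 3 in Il22r+/+ cells. Fbn1 stood at rank 4 in Il22r-/- cells and at rank 8 in Il22r+/+ cells.

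Lox (ENSMUSG00000024529, mm10 chromosome 18, 52516067 to 52529867, minus strand) encodes the founding member of the family, which acts on fibrillar collagen and elastin. It had 169, 288 and 384 FPKM in Il22r-/- replicates 1 to 3, against 480, 602 and 448 FPKM in Il22r+/+ replicates 1 to 3. All Il22r-/- libraries lay below all Il22r+/+ libraries, and the Il22r-/- libraries were widely spread, with replicate 1 the lowest. Its log2 fold change was -0.84 ± 0.29 (standard error) with an edgeR adjusted p of 0.0497, just inside the threshold. The direction was the same in all 16 alternatives, but the call was lost in 8 of them, among them each fit that left out 1 library other than Il22r-/- replicate 1 (edgeR adjusted p from 0.0524 to 0.127, in a range from 0.0149 to 0.204 over the alternatives). With 68344 reads in Il22r-/- and 120277 in Il22r+/+, counting error was small beside the spread between libraries.

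Loxl2 (ENSMUSG00000034205, chromosome 14, 69609068 to 69695834, plus strand) encodes an enzyme known for crosslinking the collagen IV of basement membranes. Its levels were 42.4, 45.1 and 50.5 FPKM in Il22r-/- replicates 1 to 3, against 129.6, 141.6 and 132.6 FPKM in Il22r+/+ replicates 1 to 3. The libraries of each genotype lay close together and far from those of the other. The difference, a log2 fold change of -1.52 ± 0.09 (edgeR adjusted p = 7.79e-07), passed in every one of the 16 alternatives, at values from -1.61 to -1.42. The predicted gene Gm27177 covers 5.57% of the Loxl2 exon length on the other strand.

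Loxl1 (ENSMUSG00000032334, chromosome 9, 58287738 to 58313186, minus strand) encodes the family member that in mice renews elastin after its first deposition. Loxl1 had 3.73, 6.20 and 6.51 FPKM in Il22r-/- replicates 1 to 3, compared with 20.6, 21.0 and 19.5 FPKM in Il22r+/+ replicates 1 to 3. All Il22r-/- values were below all Il22r+/+ values, and the lowest Il22r-/- library was again replicate 1. Loxl1 was 3.67-fold lower (log2 fold change -1.87 ± 0.18, edgeR adjusted p = 4.89e-05). This stayed between -2.02 and -1.67 over 16 alternatives and passed in each.

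Loxl3 (ENSMUSG00000000693, chromosome 6, 83034173 to 83052562, plus strand), needed for palate and spine development in mice, had 5.06, 6.64 and 5.51 FPKM in Il22r-/- replicates 1 to 3, against 11.2, 13.6 and 11.9 FPKM in Il22r+/+ replicates 1 to 3. The groups did not overlap, and the log2 fold change was -1.07 ± 0.12 (edgeR adjusted p = 4.56e-05), also passing in all 16 alternatives. Exons of Htra2 on the other strand cover 11.6% of the Loxl3 exon length. The strand setting of the counting is not given in the sources used here, so reads of that stretch cannot be assigned to either gene with certainty. Loxl4 (ENSMUSG00000025185, chromosome 19, 42593982 to 42612813, minus strand) was the least abundant lysyl oxidase and had 1.46, 1.51 and 1.35 FPKM in Il22r-/- replicates 1 to 3, against 2.16, 1.51 and 1.88 FPKM in Il22r+/+ replicates 1 to 3. Its log2 fold change of -0.33 ± 0.18 did not pass (edgeR adjusted p = 0.152, and 0.076 to 0.434 over the alternatives), and Il22r+/+ replicate 2 lay at the Il22r-/- level.

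**Figure D2:**
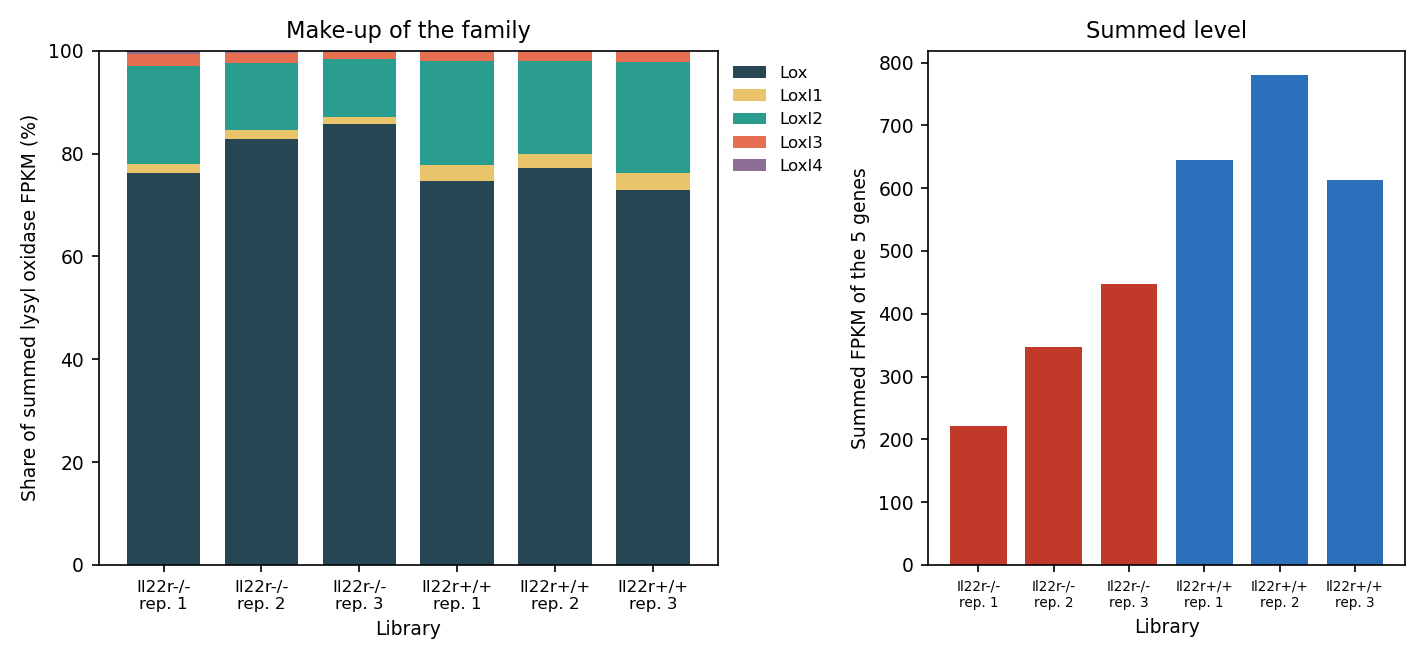
Left, share of each lysyl oxidase in the summed FPKM of the 5 genes (percent) per library, coloured by gene, and right, that sum in FPKM, with bars of Il22r-/- libraries in red and of Il22r+/+ libraries in blue. The sum runs from 221.7 to 447.4 FPKM in Il22r-/- libraries and from 613.6 to 779.8 FPKM in Il22r+/+ libraries, and Lox makes up most of it in each library.

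The summed level of the 5 lysyl oxidases was 221.7, 347.5 and 447.4 FPKM in Il22r-/- replicates 1 to 3, against 644.1, 779.8 and 613.6 FPKM in Il22r+/+ replicates 1 to 3. Lox held 81.6% ± 4.86 of the sum in Il22r-/- and 74.9% ± 2.14 in Il22r+/+ (SD, n = 3 each), with Il22r-/- replicate 1 (76.3%) inside the Il22r+/+ range of 73.0% to 77.2%. Loxl2 held 14.5% ± 4.12 in Il22r-/- and 20.0% ± 1.73 in Il22r+/+, and again the libraries overlapped. The share of Loxl1 was 1.64% ± 0.168 in Il22r-/- and 3.02% ± 0.289 in Il22r+/+, without overlap. Lox exceeded Loxl1 by 45.3, 46.4 and 58.9 times in Il22r-/- replicates 1 to 3, and by 23.3, 28.7 and 23.0 times in Il22r+/+ replicates 1 to 3. These shares describe the make-up of the family and were not tested.

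Eln (ENSMUSG00000029675, chromosome 5, 134702593 to 134747323, minus strand) encodes tropoelastin, the soluble precursor of the elastic core. It was the least abundant of the 10 genes and ranked above only 2.06% of the tested genes by mean FPKM. Its reads numbered 39, 45 and 16 in Il22r-/- replicates 1 to 3, against 8, 15 and 13 in Il22r+/+ replicates 1 to 3, that is, 0.253, 0.299 and 0.132 FPKM in Il22r-/- and 0.0594, 0.113 and 0.0979 FPKM in Il22r+/+. All Il22r-/- libraries were higher, though replicate 3 only narrowly. Eln was 2.59-fold higher (log2 fold change 1.37 ± 0.41, edgeR adjusted p = 0.019). It met the filter only through the Il22r-/- libraries, since Il22r+/+ replicate 1, at 0.468 CPM, fell below it, so its call adds no support to the count of called genes. The call was lost in edgeR without Il22r-/- replicate 1 (adjusted p = 0.0524), without Il22r-/- replicate 2 (0.0848), without Il22r+/+ replicate 1 (0.0826) or without Il22r+/+ replicate 3 (0.0558), and with limma on unfiltered log2(FPKM + 1) values (adjusted p = 0.111, with 0.00311 the lowest over the alternatives). On 36 reads in all Il22r+/+ libraries, the size of this rise is loosely determined.

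Fbn1 (ENSMUSG00000027204, chromosome 2, 125300594 to 125507993, minus strand) encodes fibrillin 1, which builds the microfibrils and binds latent TGF-beta complexes. It had 11.2, 13.3 and 16.7 FPKM in Il22r-/- replicates 1 to 3, against 8.34, 10.0 and 7.29 FPKM in Il22r+/+ replicates 1 to 3. The genotypes did not overlap, and Il22r-/- replicate 3 was the highest library. The log2 fold change was 0.71 ± 0.16 (edgeR adjusted p = 0.00618), which stayed between 0.53 and 0.83 over the alternatives and passed in all 16. The predicted gene Gm9913 covers 20.1% of the Fbn1 exon length on the other strand, with the same limit as for Loxl3.

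Fbln2 (ENSMUSG00000064080, chromosome 6, 91212455 to 91272540, plus strand) encodes a fibulin that binds basement membrane and elastic fibre proteins, and it had the largest change of the 10 genes. It had 6.05, 6.06 and 4.42 FPKM in Il22r-/- replicates 1 to 3, compared with 36.9, 42.7 and 34.3 FPKM in Il22r+/+ replicates 1 to 3. Every Il22r-/- library was far below every Il22r+/+ library. The log2 fold change was -2.75 ± 0.14, a level 6.74-fold lower (edgeR adjusted p = 7.57e-07), and over 16 alternatives it ran from -2.84 to -2.59 and passed in each.

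Fbln1 and Fbln5, the other fibulins among the genes chosen by name, did not pass the test. Fbln1 (ENSMUSG00000006369, chromosome 15, 85205949 to 85286535, plus strand), a fibulin of basement membranes and elastic fibres, had 15.9, 23.2 and 26.3 FPKM in Il22r-/- replicates 1 to 3, against 16.2, 16.6 and 17.1 FPKM in Il22r+/+ replicates 1 to 3. Il22r-/- replicate 1 lay just below the Il22r+/+ libraries, and inside their range in CPM, while the other two Il22r-/- libraries lay above them. The log2 fold change of Fbln1 was 0.41 ± 0.16 (edgeR adjusted p = 0.0615). Leaving out Il22r-/- replicate 1 gave a call (0.59, edgeR adjusted p = 0.000226), as did library size alone (0.02), no filter (4.05e-05) and the DESeq2 Wald test (0.0295), and the highest adjusted p of any alternative was 0.258. Fbln5 (ENSMUSG00000021186, chromosome 12, 101746565 to 101819055, minus strand) encodes the fibulin that holds tropoelastin and Loxl1 together and that elastic fibre assembly in mice requires. It had 6.75, 11.0 and 14.5 FPKM in Il22r-/- replicates 1 to 3, against 13.6, 15.4 and 13.4 FPKM in Il22r+/+ replicates 1 to 3. Il22r-/- replicate 3 lay inside the Il22r+/+ range, and the log2 fold change of -0.37 ± 0.26 did not pass (edgeR adjusted p = 0.282, and 0.0925 to 0.503 over the alternatives). The level of Fbln1 over that of Fbln2 was 2.63, 3.83 and 5.96 in Il22r-/- replicates 1 to 3, against 0.44, 0.388 and 0.499 in Il22r+/+ replicates 1 to 3, so the more abundant of the pair was Fbln1 in Il22r-/- cells and Fbln2 in Il22r+/+ cells.

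**Figure D3:**
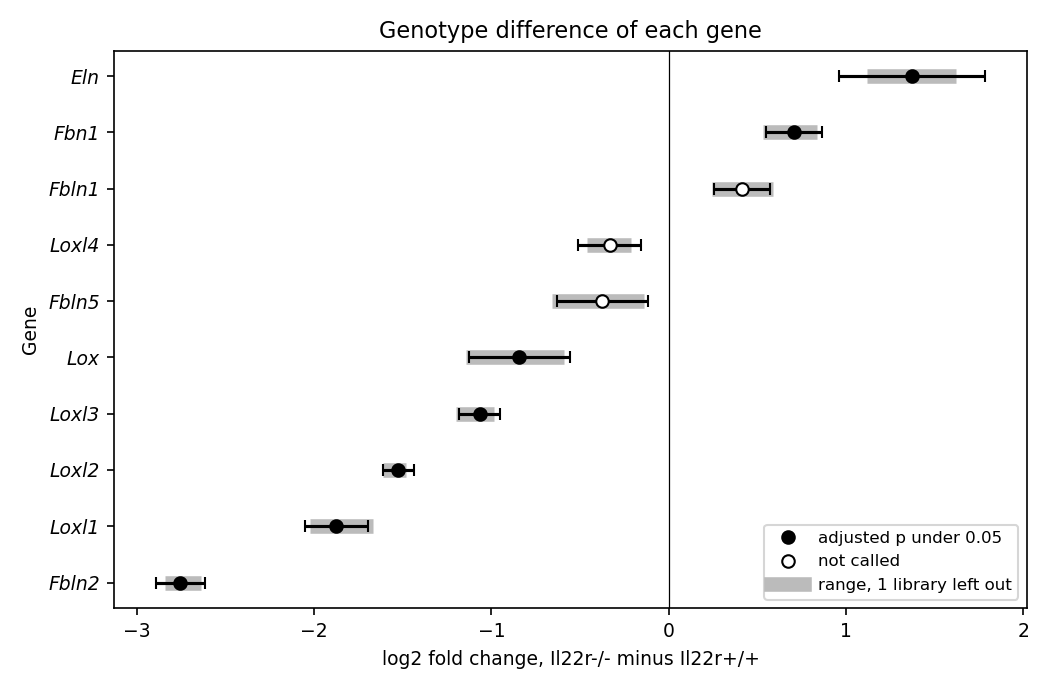
Log2 fold change of each gene (Il22r-/- minus Il22r+/+) with its standard error, filled where the edgeR adjusted p was under 0.05, and the grey bar giving the range when 1 library was left out. Values run from -2.75 for Fbln2 to 1.37 for Eln, and no grey bar crosses 0.

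The promoter windows below show the start-site sequence of the fibulin that fell most, of fibrillin 1, which rose, and of Fbln1, the gene with a match to one of the motifs searched. They are from RefSeq on GRCm38.p6, the assembly behind mm10, and run from 250 bases before to 50 bases after the annotated start. Capitals mark motif matches.
Fbln2 (chr6:91212514-91212813, plus strand): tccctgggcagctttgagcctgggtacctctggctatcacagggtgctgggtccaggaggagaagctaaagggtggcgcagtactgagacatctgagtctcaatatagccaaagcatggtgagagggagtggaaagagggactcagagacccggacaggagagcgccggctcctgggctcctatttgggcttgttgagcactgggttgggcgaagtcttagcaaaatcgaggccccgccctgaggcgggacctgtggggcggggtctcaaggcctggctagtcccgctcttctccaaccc
Fbn1 (chr2:125506389-125506688, minus strand): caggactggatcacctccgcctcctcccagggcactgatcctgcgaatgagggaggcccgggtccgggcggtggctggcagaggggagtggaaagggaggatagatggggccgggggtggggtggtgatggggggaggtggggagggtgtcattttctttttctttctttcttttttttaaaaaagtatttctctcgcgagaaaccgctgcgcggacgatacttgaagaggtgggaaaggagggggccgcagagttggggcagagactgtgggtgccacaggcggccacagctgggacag
Fbln1 (chr15:85205758-85206057, plus strand): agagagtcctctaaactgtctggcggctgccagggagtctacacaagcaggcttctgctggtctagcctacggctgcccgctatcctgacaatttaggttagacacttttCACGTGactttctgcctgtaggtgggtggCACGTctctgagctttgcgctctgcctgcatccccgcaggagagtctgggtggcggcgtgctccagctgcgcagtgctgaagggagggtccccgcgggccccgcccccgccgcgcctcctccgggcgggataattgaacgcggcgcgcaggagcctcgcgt

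Windows were found for 5 of the 10 genes, 7 windows in all, the remaining ones being of Loxl4, Fbln5 and a second start of Fbln1, whereas Lox, Loxl1, Loxl2, Loxl3 and Eln had none. Both strands were searched for TTCNNNGAA (bound by STAT factors), TGANTCA (AP-1), ACGTG (the core bound by hypoxia-inducible factors) and GGAATG (TEAD). The letters TTCNNNGAA, TGANTCA and GGAATG were in none of the 7 windows, against 8.3%, 7.81% and 14.7% of 32851 windows in the table. ACGTG was in both Fbln1 windows, which overlap each other, against 19.6% of all windows. In the window shown, overlapping matches on the opposite strands begin 140 and 139 bases before the start, and another match begins 111 bases before it. These matches are letters in a window and say nothing of binding.

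**Figure D4:**
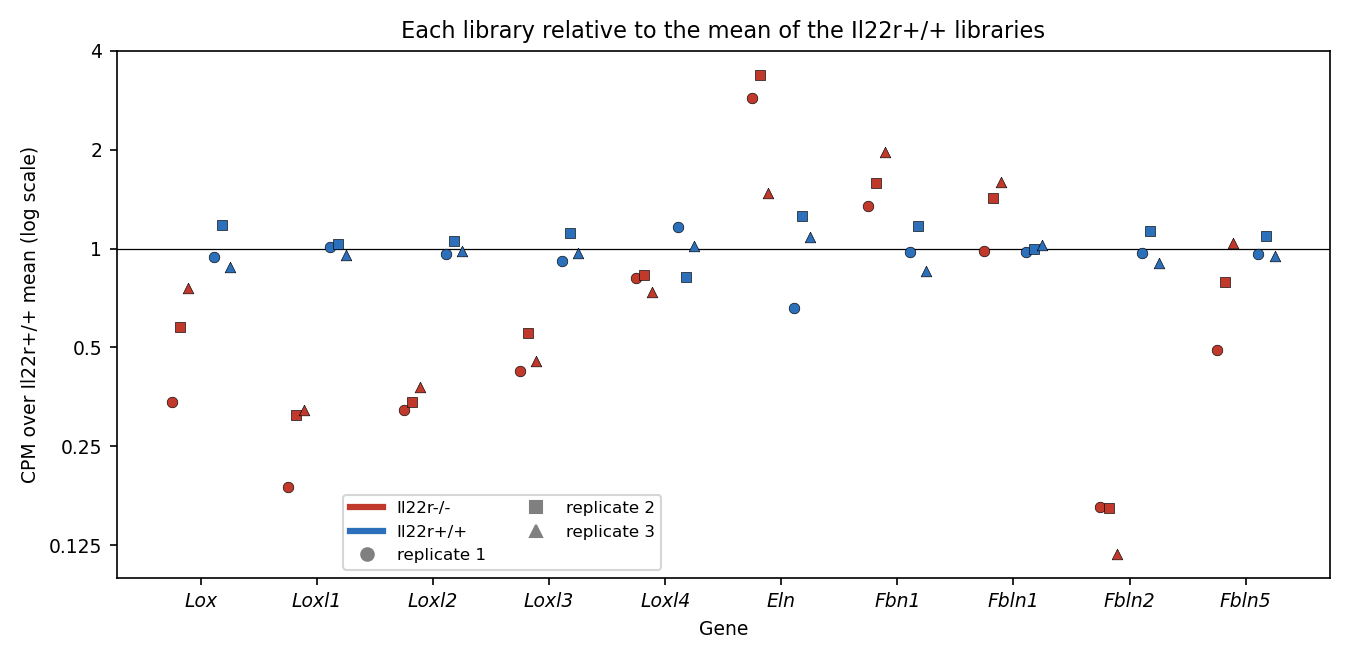
CPM of each library divided by the mean of the Il22r+/+ libraries (log scale) for the 10 genes, with Il22r-/- libraries (red) left of Il22r+/+ libraries (blue) and marker shapes for replicates. Il22r-/- replicate 1 is the lowest Il22r-/- library for 7 of the genes, and Il22r-/- replicate 3 the highest for 6.

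The Il22r-/- libraries differed among themselves in the levels of the 10 genes. Replicate 1 was the lowest of the 3 in CPM for 7 genes, and replicate 3 for the other 3 (Loxl4, Eln and Fbln2). For Lox, replicates 1 to 3 stood at 0.34, 0.575 and 0.759 of the Il22r+/+ mean, and for Fbln5 at 0.491, 0.793 and 1.04. For Fbn1 they stood at 1.35, 1.58 and 1.97 of that mean. Loxl2 varied least among the called genes, with a coefficient of variation of 8.06% in CPM and a range from 0.323 to 0.378 of the Il22r+/+ mean. Over the Il22r-/- libraries this coefficient was 37.6% for Lox, 35.3% for Fbln5 and 23.9% for Fbln1, compared with 16.1%, 7.94% and 2.59% for the same genes over the Il22r+/+ libraries.

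A search of 10349 tested genes that code for protein and average 5 CPM or more gave the nearest patterns, as follows. Those whose centred log2 CPM over the 6 libraries came closest to Fbln2 were the transcription factor gene Nfib, the proteoglycan gene Fmod and the quinone reductase gene Nqo1. Their root mean square differences from Fbln2 were 0.0881, 0.139 and 0.174 log2 units. Closeness on this measure requires a similar genotype difference. The log2 fold changes of these genes were -2.78, -2.82 and -2.75, beside -2.75 for Fbln2. Shared regulation was not tested here or for the genes below. Closest to Loxl1 were the ephrin receptor gene Ephb3, the TNF receptor family gene Tnfrsf23 and Lpl, a lipoprotein lipase, at 0.0795 to 0.0849. Closest to Loxl2 were B4galnt1, a ganglioside synthesis enzyme, at 0.046, the adhesion protein gene Cxadr at 0.0561 and the non-muscle myosin gene Myh14 at 0.0776. Fmod, for example, averaged 1.53 ± 0.472 CPM in Il22r-/- and 11.0 ± 1.35 CPM in Il22r+/+ (SD, n = 3 each), and Cxadr averaged 173 ± 16.9 CPM in Il22r-/- and 464 ± 14.5 CPM in Il22r+/+.

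Genes that assemble elastic fibres and microfibrils changed in both directions. Of 28 listed, 23 were tested, of which 8 rose and 11 fell (82.6% called, beside 45.7% of all tested genes), with a median log2 fold change of -0.45. Hemicentin 1 (Hmcn1), a relative of the fibulins, averaged 2.25 ± 0.421 CPM in Il22r-/- and 0.178 ± 0.207 CPM in Il22r+/+ (log2 fold change 3.62, and 5.10 without Il22r+/+ replicate 2, which held 7 of the 9 Il22r+/+ reads). Emilin1, a glycoprotein at the surface of elastic fibres, had 55, 160 and 30 reads in Il22r-/- replicates 1 to 3, against 17, 6 and 13 reads in Il22r+/+ replicates 1 to 3. Its log2 fold change of 2.65 was 1.76 without Il22r-/- replicate 2, and limma on log2(FPKM + 1) ended its call (adjusted p = 0.0751). Fbln7 rose by 2.52 on the log2 scale, and Adamtsl1, a secreted ADAMTS-like protein, fell by 3.20. All 4, and Adamtsl3, met the filter on low counts only through the genotype in which they were higher, as did Col1a2, Col5a3, Mmp12 and Ctss in the lists that follow, so the shares called in these lists are descriptions and support nothing.

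Further partners of the 10 genes are named here after their values were seen. Fibrillin 2 (Fbn2) averaged 109 ± 21.8 CPM in Il22r-/- and 37.6 ± 6.55 CPM in Il22r+/+ (SD, n = 3 each), a log2 fold change of 1.54 ± 0.17. Ltbp1, which anchors latent TGF-beta to microfibrils, averaged 385 ± 77.0 CPM in Il22r-/- and 113 ± 17.1 CPM in Il22r+/+. Efemp2 (fibulin 4), which brings Lox to tropoelastin, averaged 98.6 ± 0.697 CPM in Il22r-/- and 159 ± 7.75 CPM in Il22r+/+, and fibronectin (Fn1) averaged 953 ± 215 CPM in Il22r-/- and 2360 ± 181 CPM in Il22r+/+. All of these passed the edgeR test, Fbn2 and Ltbp1 rising and Efemp2 and Fn1 falling.

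Genes that activate lysyl oxidases, supply their copper or prepare collagen for crosslinking were listed with 18 members, of which 15 were tested. P4ha2, a prolyl hydroxylase subunit, rose and 5 fell (40% called, close to the 45.7% of all tested genes), with a median log2 fold change of -0.21. Bmp1, the protease that cuts the Lox precursor to its active form, averaged 188 ± 5.40 CPM in Il22r-/- and 350.3 ± 10.3 CPM in Il22r+/+ (log2 fold change -0.89 ± 0.07, edgeR adjusted p = 6.48e-06). Fmod, which guides lysyl oxidase to collagen, fell by 2.82 and P4ha1 by 0.46 on the log2 scale. The copper transporters Atp7a and Slc31a1 did not pass, at log2 fold changes of -0.24 and -0.09. Without Il22r-/- replicate 3, 10 of 16 tested genes of this list were called.

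Of 11 fibrillar collagen genes, the chief substrates of lysyl oxidases, 10 were tested, and 1 rose and 5 fell (60% called, beside 45.7% of all tested genes, of which 22.1% lower). Their median log2 fold change was -0.55. Col27a1 fell by 2.78, Col3a1 by 1.49 and Col5a1 by 0.59. Col1a2, a chain of type I collagen, had 844, 1860 and 615 reads in Il22r-/- replicates 1 to 3, against 49, 24 and 9 reads in Il22r+/+ replicates 1 to 3 (log2 fold change 5.24, and 5.95 without Il22r+/+ replicate 1). Col1a1, the partner chain of Col1a2, did not pass, with 103 ± 32.6 CPM in Il22r-/- and 132 ± 16.9 CPM in Il22r+/+.

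Of 10 proteases that can degrade elastin, 7 were tested, 4 rose and 2 fell (85.7% called, beside 45.7% of all tested genes, of which 23.6% higher). Their median log2 fold change was 0.64. The macrophage elastase Mmp12 had 110, 130 and 56 reads in Il22r-/- replicates 1 to 3, against 3, 5 and 0 reads in Il22r+/+ replicates 1 to 3 (log2 fold change 5.06, and 5.84 without Il22r+/+ replicate 2). Ctss, a cathepsin of macrophages and other antigen-presenting cells, rose by 3.63, by 2.99 without Il22r-/- replicate 2 and by 4.37 without Il22r+/+ replicate 1. Ctsk, another cathepsin, rose by 1.01, but its edgeR call was lost without Il22r-/- replicate 2 (adjusted p = 0.128), Il22r+/+ replicate 1 (0.0912) or Il22r+/+ replicate 2 (0.0854). Mmp14, a membrane-bound metalloproteinase, fell by 0.68. Mmp7 and Elane had no read in any library. The 8 macrophage markers summed to 26.6 to 77.8 CPM in Il22r-/- libraries and 8.53 to 10.1 CPM in Il22r+/+ libraries. The part of macrophages in the protease levels was not tested.

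**Figure D5:**
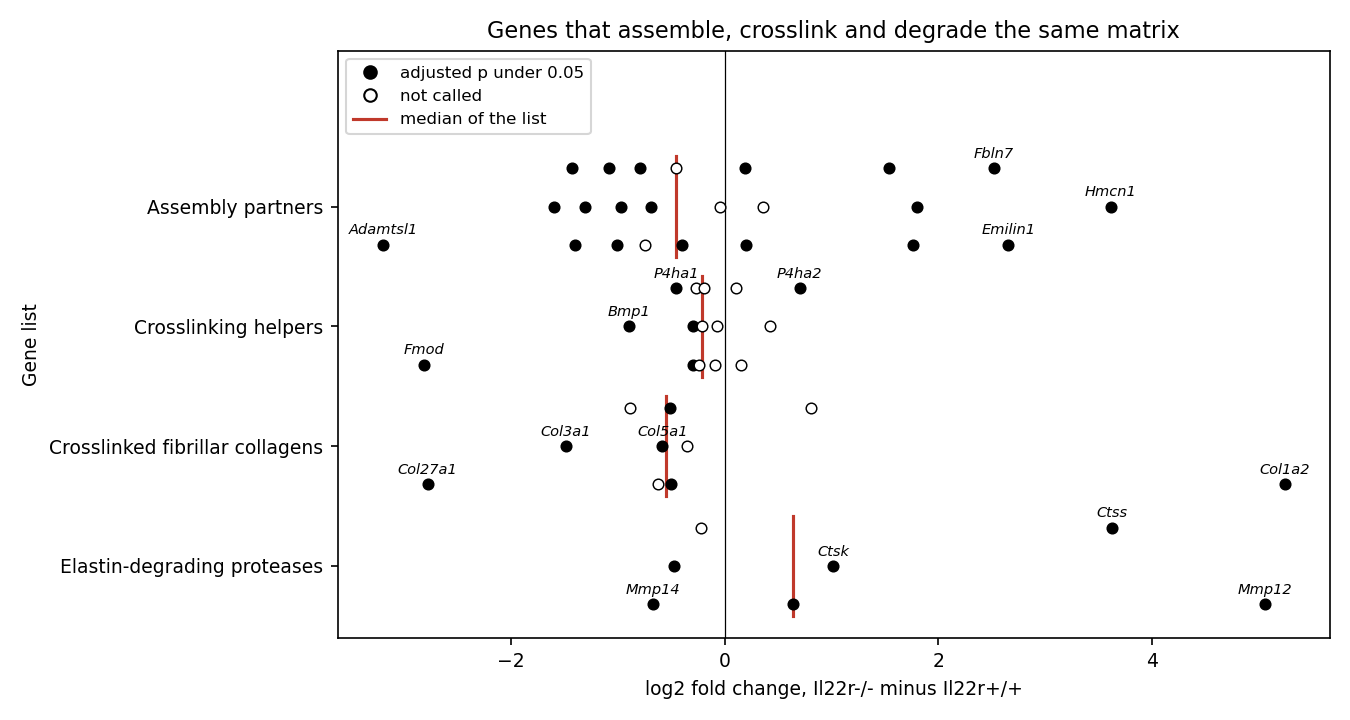
Log2 fold change (Il22r-/- minus Il22r+/+) of each tested gene in 4 lists of related matrix genes, filled where the edgeR adjusted p was under 0.05, with red lines at list medians. The medians are -0.45 for assembly partners, -0.21 for crosslinking helpers, -0.55 for fibrillar collagens and 0.64 for elastin-degrading proteases.

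Some markers of other cell types differed between the genotypes and others did not. The 8 stromal and theca markers summed to 181 to 286 CPM in Il22r-/- libraries and 680.2 to 703 CPM in Il22r+/+ libraries. Col1a1, Col3a1 and Dcn together held most of this sum. Of 5 tested, Dcn and Col3a1 fell, while Col1a1, Pdgfra and Lum did not pass (40% called, beside 45.7% of all tested genes). Col1a1 and Col3a1 stand in this list and among the fibrillar collagens. The theca markers Cyp17a1 and Insl3 were near 0, with 2 and 1 reads in all Il22r-/- libraries and 4 and 4 in all Il22r+/+ libraries, while Tcf21, a transcription factor of stromal fibroblasts, ran the other way, with 22, 42 and 8 reads in Il22r-/- replicates 1 to 3 and no read in Il22r+/+ (not tested). The 6 markers of ovarian surface epithelium and mesothelium summed to 25.3 to 42.1 CPM in Il22r-/- libraries and 258 to 263 CPM in Il22r+/+ libraries. Of these 6, 4 fell (66.7% called, beside 45.7% of all tested genes, of which 22.1% lower). The 6 smooth muscle and pericyte markers summed to 340.3 to 563 CPM in Il22r-/- libraries and 267 to 322 CPM in Il22r+/+ libraries. Acta2 held most of this sum. Of 5 tested, Acta2, Myh11 and Des were higher and Tagln was lower (80% called, beside 45.7% of all tested genes). The 5 endothelial markers summed to 4.20 to 7.15 CPM in Il22r-/- libraries and 3.68 to 5.39 CPM in Il22r+/+ libraries. Tek held most of this sum in Il22r+/+ libraries, at a mean of 3.79 CPM, against 2.33 CPM in Il22r-/- (1.62-fold lower). Pecam1 and Kdr were 2.67-fold and 5.74-fold higher, and the untested Cdh5 and Emcn had 62 and 7 reads in all Il22r-/- libraries, against 2 and 0 in all Il22r+/+ libraries. Pecam1, Kdr, Myh11 and Des met the filter on low counts only through the Il22r-/- libraries, so their calls support nothing. The 4 oocyte markers summed to at most 1.87 CPM in any library, and the 1 tested did not pass. The part of these cell types in the levels of the 10 genes was not tested.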

How the data were processed

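The submitters' processing notes name mm10 and featureCounts (1.5.0-p3); no source used here gives the aligner, the read length or the strand setting. The deposited files hold the authors' raw read counts, tested here as deposited, and FPKM values, which equal count over gene length times 1 constant per library. Values are per library, and genotype came from the labels. Genes passing filterByExpr were scaled with TMM and tested in edgeR 4.0.16 (robust quasi-likelihood, genotype only; Benjamini-Hochberg over 15227 genes; threshold 0.05). Standard errors were derived from the F statistic, and the edgeR step was tested on simulated data. Alternatives used DESeq2 1.42.0, limma 3.58.1 (voom, and log2(FPKM + 1) or log2(FPKM + 0.1)), other scaling and filters, a replicate block and each library left out (R 4.3.3).

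The 10 genes and the lists were chosen with earlier results of these data known. Text names all 10, up to 4 called genes per related list by size of change, and the 3 nearest patterns of the 3 most changed genes; other genes were chosen after their values were seen. The list medians and counts carry no test. Exon overlaps came from GENCODE M21 (mm10), whose ends matched the deposited ones for these genes. The longest run shared by transcripts of any pair of the 10 genes was 32 bases (Lox and Loxl1). Protein motifs were not analysed here.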

Additional observations from a re-analysis of the deposited data

How the results depend on the processing

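Fbln2, Loxl1, Loxl2, Loxl3 and Fbn1 kept their direction and call in all 16 alternatives, and Loxl4 and Fbln5 passed in none. Calls of Lox, Eln and Fbln1 changed as given above; the cause was not tested. With 1 library left out, called genes ranged from 5411 to 8243, the 10 genes called from 5 to 7, assembly partners from 15 to 18, crosslinking helpers from 5 to 10, fibrillar collagens from 4 to 6 and proteases from 5 to 6. With no filter 10 crosslinking helpers were called, 3 of 18 higher and 7 lower. Limma called 10 assembly partners on log2(FPKM + 1) and 11 on log2(FPKM + 0.1), with 16 tested in place of 23. Same-numbered libraries did not deviate together (r = 0.026, -0.0406 and -0.0278). With 3 libraries per genotype this check cannot exclude that the numbers pair the samples. A replicate block gave 6405 called genes and 8 of the 10, Fbln1 being added (edgeR adjusted p = 0.0318). Eln had 100 reads in all Il22r-/- libraries and 36 in all Il22r+/+ libraries, so its counting error is large.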
